A study of Mus musculus with 16 samples.

Results

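The genes described here are the R-spondins and the proteins through which they act: the 4 secreted ligands Rspo1, Rspo2, Rspo3 and Rspo4, the 3 receptors Lgr4, Lgr5 and Lgr6, and the 2 membrane ubiquitin ligases Znrf3 and Rnf43. They are 9 of the 46078 genes in the count table and were taken by gene symbol. The family itself was selected on a measured value, the large rise of Rspo4 counts in cold brown fat, so the values of BAT_cold against BAT describe the members and support nothing. All 9 had at least 1 count in at least 1 library.

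RNA was measured by poly(A)-selected RNA sequencing in brown adipose tissue (BAT), which burns fuel for heat, and in white adipose tissue from the inguinal depot (WAT), a subcutaneous fat store. All mice were labelled female and wild type, of strain C57BL/6, 16 weeks old, bred and weaned at 30 °C, and went without food for 2 to 3 h before collection. The BAT and WAT groups stayed at 30 °C. The BAT_cold and WAT_cold groups entered a climate chamber when aged 10 to 12 weeks, spending 2 weeks at 18 °C before 3 weeks at 5 °C. Each of the 4 groups had 4 libraries.

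R-spondins amplify Wnt signalling rather than start it. In the absence of an R-spondin, ZNRF3 and RNF43 ubiquitinate the Wnt receptors of the Frizzled family and their partner LRP6 and so remove them from the cell surface. An R-spondin bound to an LGR receptor and to one of these ligases clears the ligase from the membrane, and Frizzled and LRP6 accumulate. Wnt signalling through beta-catenin is known to restrain the formation of fat cells, and Axin2, Lgr5, Znrf3 and Rnf43 are themselves known targets of the pathway in several tissues.

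Depth ran from 54264023 to 71289020 counts per library. Ucp1, the uncoupling protein of brown fat, was at 634 to 2019 CPM (counts scaled to a common library size) in BAT, 12388 to 13787 CPM in BAT_cold, 0.0839 to 0.324 CPM in WAT and 6.08 to 399 CPM in WAT_cold. Brown fat libraries carry a tissue label that also names the inguinal depot, and in 4 of the 8 brown fat libraries (BAT replicates 3 and 4, BAT_cold replicates 1 and 2) a source label gave the opposite group to the title. WAT_cold replicate 1 stood apart from the other 15 libraries: it held 3 counts of Xist, the RNA of the inactive X chromosome, against 11136 to 88934, and 17183 counts over 4 Y-linked genes against 3 to 45. Those counts go against its label of female, so it is the library labelled WAT_cold replicate 1. Its 8 mammary epithelium markers summed to 8.40 CPM, with Krt17 at 0, against 834 to 905 CPM in the other 3 WAT_cold libraries. Its T and NK cell markers summed to 80.2 CPM against 292 to 352 CPM, and its skeletal muscle markers to 5567 CPM against 7.93 to 180 CPM. Most member values that rest on WAT_cold are therefore given with and without it. CPM were scaled by TMM, which sets the level of each library from the bulk of its genes, and group values are means ± SD over n = 4 libraries if nothing else is said.

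The ligands come first. Rspo4 (ENSMUSG00000032852), whose human counterpart is needed for nails to form, was all but absent outside cold brown fat. Its level in BAT was 0, 0.0185, 0 and 0 CPM in replicates 1 to 4, which is 1 count in the 4 libraries together. In BAT_cold it was 13.4, 20.0, 15.7 and 25.7 CPM, from 475, 878, 668 and 1040 counts. White fat held 0.0192, 0.0210, 0.0447 and 0 CPM, and in WAT_cold 0.0640, 0.0330, 0.143 and 0.0661 CPM. All 4 BAT_cold libraries lay above all 12 others, and no library of the other 3 groups held more than 12 counts. These are bulk tissues, in which fewer cells of a type and less RNA per cell cannot be told apart.

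**Figure D1:**
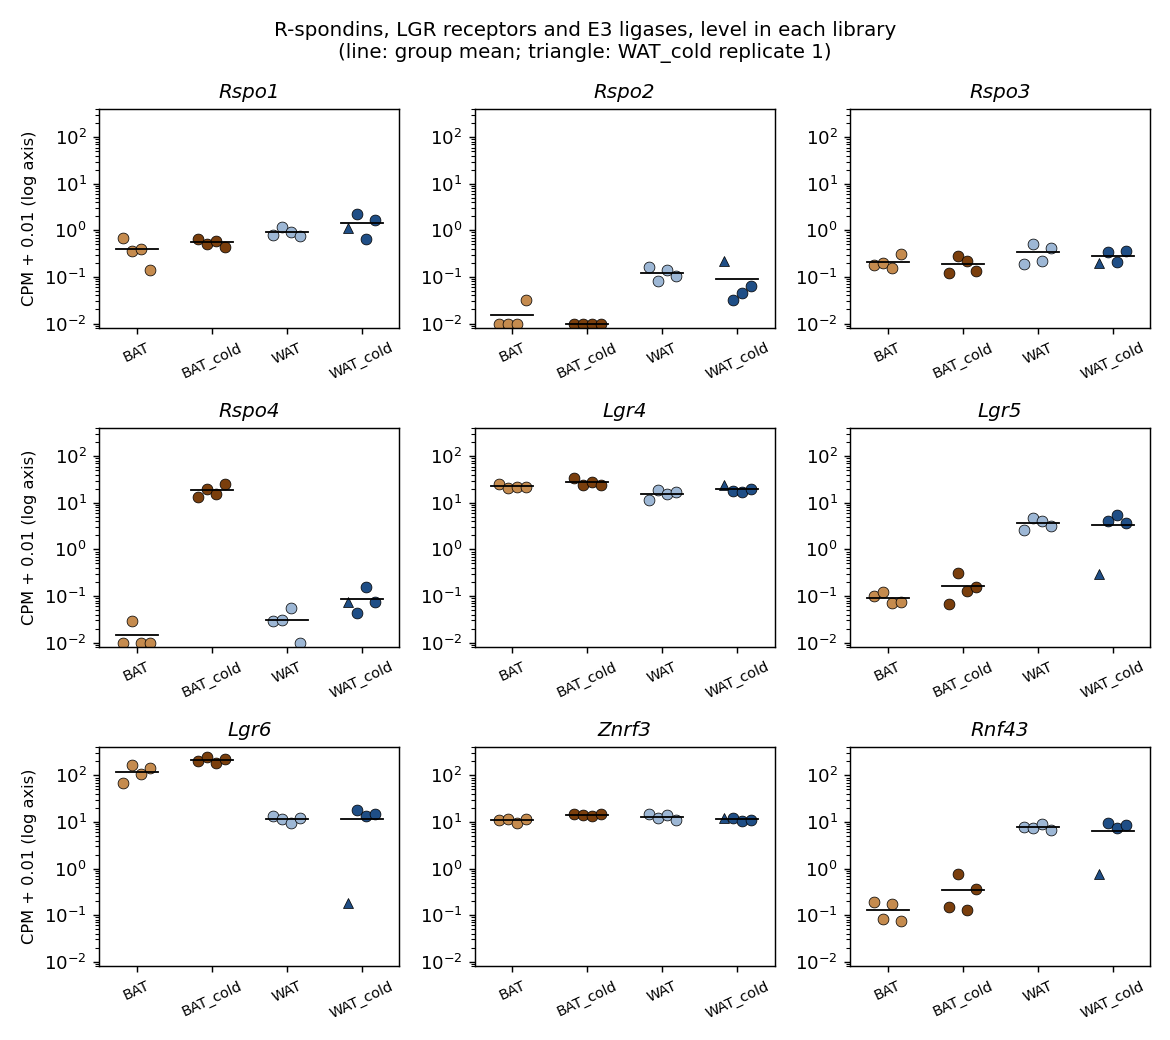
CPM of the 9 members (TMM scaled, log axis with 0.01 added) in each library, with the 4 groups side by side; points are libraries, lines are group means, and the triangle is WAT_cold replicate 1. Rspo4 lies at 13.4 to 25.7 CPM in BAT_cold and at 0.143 CPM or less elsewhere, and Lgr5, Lgr6 and Rnf43 fall far below the rest of their group in WAT_cold replicate 1.

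The mean of Rspo4 went from 0.00462 ± 0.00924 CPM in BAT to 18.7 ± 5.39 CPM in BAT_cold. The ratio of summed counts, each over the summed scaled library sizes of its group, was 3848, with an exact 95% interval of 690 to 152021 that covers counting error only (3061 counts against 1). The fitted log2 fold change was 11.26 ± 0.45 (SE), second by size among the increases of the 16213 genes tested, and it depends on how the fit treats the near absence in BAT. In the 4 libraries in which all labels matched it was 10.78.

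The start of Rspo4 is shown because this is the member whose RNA differed most. The window runs from 250 bases before to 50 bases after the gene start, from RefSeq on GRCm38.p6, chr2:151842677-151842976, plus strand; the build used for counting is not given in the sources used here. Capitals mark an E-box (CACGTG) and 2 GC boxes (GGGCGG, here on the other strand as CCGCCC).

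Rspo4: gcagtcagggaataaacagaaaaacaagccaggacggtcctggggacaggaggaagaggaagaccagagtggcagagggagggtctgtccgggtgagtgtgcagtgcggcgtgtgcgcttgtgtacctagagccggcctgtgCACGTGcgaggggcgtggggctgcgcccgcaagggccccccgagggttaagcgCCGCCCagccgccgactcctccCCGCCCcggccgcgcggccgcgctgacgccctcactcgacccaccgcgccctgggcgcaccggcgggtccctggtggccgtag

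The window was 71.0% G and C with 31 CpG dinucleotides, against medians of 52.7% and 7 over all 32851 promoters of the same length. The E-box began 108 bases before the gene start, and 7.15% of all promoters held one. The GC boxes began 55 and 33 bases before it, and 35.7% of all promoters held one. The cAMP response element (TGACGTCA), the TCF/LEF site (CTTTGAT), the direct repeat 1 of nuclear receptors, the ERR site (TCAAGGTCA), the sterol regulatory element (TCACNCCAC) and the TATA box (TATAAA) had no match on either strand in this window. A match is a description of letters, and the windows of Rspo2, Rspo3, Lgr5 and Znrf3 were not in the table used.

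Rspo1 (ENSMUSG00000028871), which is expressed in mesothelium and in stromal cells of several organs, was the leading R-spondin by mean level per length in the other 3 groups. Its level was 0.682, 0.351, 0.385 and 0.130 CPM in BAT and 0.651, 0.502, 0.589 and 0.420 CPM in BAT_cold, and the 2 groups overlapped. In WAT the values were 0.769, 1.16, 0.893 and 0.740 CPM and in WAT_cold 1.09, 2.27, 0.653 and 1.66 CPM, which also overlapped. The fitted change was 0.47 ± 0.43 in BAT and 0.64 ± 0.38 in WAT, where the adjusted p from edgeR was 0.369. Without WAT_cold replicate 1 the change in WAT was 0.74 ± 0.39 (adjusted p from edgeR 0.294).

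Rspo3 (ENSMUSG00000019880), known from endothelium and stroma, was at 7 to 14 counts per library in BAT, 4 to 12 in BAT_cold, 19 to 48 in WAT and 12 to 31 in WAT_cold. It shares 404 bases, or 13.1% of its exon bases, with Gm48159 on the opposite strand, and the strand setting of the counting is not given in the sources used here. In WAT without WAT_cold replicate 1 the change of Rspo3 was -0.19 ± 0.43. Rspo2 (ENSMUSG00000051920), best known from limb and nerve-muscle development, had 1 count in all of BAT and 0 in all of BAT_cold. It had 16, 7, 12 and 8 counts in WAT and 13, 2, 3 and 5 in WAT_cold. Leaving out WAT_cold replicate 1, whose 13 counts were the most in its group, the highest WAT_cold level was 0.0551 CPM and the lowest WAT level 0.0734 CPM. Rspo2 did not enter the filtered fits of either tissue. In the unfiltered fit of all 8 white fat libraries its change was -0.60 ± 0.68 (adjusted p from edgeR 0.659).

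Put on one scale by dividing each level by the length of the gene's exons, the 4 ligands summed to 0.267 CPM per kb in BAT, 8.24 in BAT_cold, 0.598 in WAT and 0.867 in WAT_cold. Rspo4 made up 95.6% ± 1.68 of that sum in BAT_cold and 0.783% ± 1.57 in BAT. Rspo1 went from 70.1% ± 21.1 of the sum in BAT to 3.70% ± 1.58 in BAT_cold. Rspo3 held 28.5% ± 20.1 in BAT and led in BAT replicate 4, at 0.0985 CPM per kb against 0.0673 for Rspo1. In WAT, Rspo1 held 77.0% ± 4.26, Rspo3 17.5% ± 6.62, Rspo2 3.99% ± 1.80 and Rspo4 1.51% ± 1.36. In WAT_cold, Rspo1 held 82.1% ± 7.76 and Rspo4 5.14% ± 5.24, or 82.4% ± 9.47 and 5.55% ± 6.34 without replicate 1. The leading R-spondin by mean level per length was thus Rspo4 in BAT_cold and Rspo1 in the other 3 groups, which restates the rise of Rspo4.

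**Figure D2:**
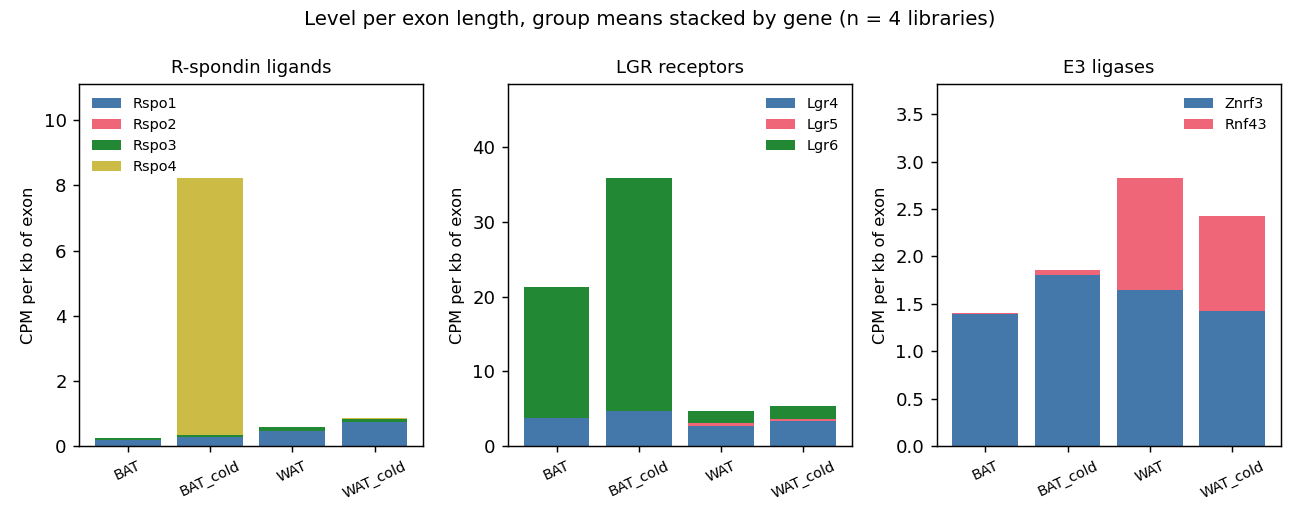
CPM per kb of exon in the 4 groups, as group means (n = 4) stacked by gene for the 4 ligands, the 3 LGR receptors and the 2 ligases. The ligand bar reaches 8.24 in BAT_cold and is nearly all Rspo4, and Lgr6 leads the receptor bars of both brown fat groups while Lgr4 leads those of white fat.

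Lgr6 (ENSMUSG00000042793), an R-spondin receptor known as a marker of skin stem cells, was the receptor with the highest level per length in brown fat. Its level in BAT was 67.0, 164, 109 and 141 CPM. In BAT_cold it was 202, 243, 188 and 221 CPM, all above BAT. White fat at 30 °C stood at 13.2, 11.6, 9.39 and 12.0 CPM, and in WAT_cold 0.176, 17.7, 13.4 and 14.6 CPM. WAT_cold replicate 1 held 11 counts of Lgr6 against 1130 to 1603 in the other 3 WAT_cold libraries.

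In brown fat Lgr6 changed by 0.83 ± 0.23 on the log2 scale, from 120.0 ± 41.8 to 214 ± 23.6 CPM. The change was 0.47 with library totals in place of TMM and did not pass the threshold there, in the 4 libraries in which all labels matched (0.83) or in one fit of all 16 libraries (0.83). The pericyte and smooth muscle markers summed to 742 to 926 CPM in BAT and 944 to 1057 CPM in BAT_cold, and 3 of the 6 rose. Of the 6 brown adipocyte markers 6 rose, with sums of 2468 to 4549 CPM in BAT and 17366 to 18899 CPM in BAT_cold, and of the 6 general adipocyte markers 4 rose and 1 fell. Of the 6 preadipocyte and fibroblast markers 4 fell, from sums of 578 to 708 CPM to 389 to 553 CPM. The 6 T and NK cell markers all fell, from sums of 6.82 to 9.49 CPM to 1.41 to 3.09 CPM. Of the 6 endothelial markers 2 rose and 3 fell, and of the 6 Schwann cell markers 1 rose, where 29.2% of all genes rose and 30.3% fell. The part of these cell types in the changes of Lgr6, Znrf3 and the pathway genes of brown fat was not tested. In WAT the change of Lgr6 was -0.04 ± 0.88 with an adjusted p from edgeR of 0.985. Once WAT_cold replicate 1 was left out it was 0.37 ± 0.14 with an adjusted p of 0.178, and the 2 groups then did not overlap.

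The start of Lgr6 is shown as that of the leading receptor, from RefSeq on GRCm38.p6, chr1:135105227-135105526, minus strand, printed 5′ to 3′ along the gene. Capitals mark 2 GC boxes (CCGCCC, the other strand of GGGCGG).

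Lgr6: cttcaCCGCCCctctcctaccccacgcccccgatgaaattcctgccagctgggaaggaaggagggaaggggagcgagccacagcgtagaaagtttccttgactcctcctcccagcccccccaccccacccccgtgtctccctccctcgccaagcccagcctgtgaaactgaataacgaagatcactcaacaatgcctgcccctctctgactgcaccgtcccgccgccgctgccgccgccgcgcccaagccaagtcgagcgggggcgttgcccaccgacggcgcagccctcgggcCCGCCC

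This window was 67.7% G and C with 24 CpG. Its GC boxes began 245 bases before and 45 bases after the gene start, and none of the other 7 motifs searched in Rspo4 had a match. It shared with the Rspo4 window the GC box, which 35.7% of all promoters hold, and not the E-box.

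Lgr4 (ENSMUSG00000050199), the most widely expressed receptor of the 3, was at 25.3, 20.9, 21.7 and 22.3 CPM in BAT and 34.7, 23.7, 27.9 and 24.1 CPM in BAT_cold. The WAT libraries had 11.5, 18.9, 15.5 and 17.5 CPM and in WAT_cold 23.9, 17.7, 17.0 and 19.6 CPM. The ranges overlapped between temperatures in both tissues. The change was 0.29 ± 0.12 in brown fat, under the threshold with TMM, past it with RLE size factors (0.32), without BAT replicate 1 (0.37) or without BAT_cold replicate 2 (0.37), and -0.09 with library totals. In WAT it was 0.27 ± 0.18, with an adjusted p from edgeR of 0.403 and a value of -0.01 with library totals, and 0.16 ± 0.16 (adjusted p 0.604) without WAT_cold replicate 1.

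Lgr5 (ENSMUSG00000020140), the stem cell receptor of gut and mammary gland, was nearly absent from brown fat. It was at 0.0607 to 0.111 CPM in BAT and at 0.0566, 0.297, 0.118 and 0.148 CPM in BAT_cold. In WAT it was 2.65, 4.61, 4.01 and 3.14 CPM, and in WAT_cold 0.288, 4.01, 5.61 and 3.66 CPM. All 4 WAT libraries and 3 of the 4 WAT_cold libraries lay above every brown fat library by a wide margin. WAT_cold replicate 1 lay below the highest BAT_cold library.

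Per length, the 3 receptors summed to 21.4 CPM per kb in BAT, 35.9 in BAT_cold, 4.73 in WAT and 5.32 in WAT_cold. Lgr6 held 80.5% ± 7.75 of the receptor sum in BAT and 86.7% ± 2.96 in BAT_cold. In WAT, Lgr4 led with 56.6% ± 6.27, beside 36.0% ± 7.21 for Lgr6 and 7.40% ± 1.45 for Lgr5. With the longest transcript as length in place of all exons, Lgr5 held 13.3% ± 2.38 in WAT and Lgr4 still led. In WAT_cold, Lgr6 held 38.7% ± 3.87 without replicate 1. There Lgr4 held 64.9% ± 22.7, or 53.7% ± 3.49 without replicate 1, in which it reached 98.7%.

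The ligases oppose the receptors' effect. Znrf3 (ENSMUSG00000041961) was at 10.9, 11.8, 9.37 and 11.6 CPM in BAT and 14.5, 14.3, 13.7 and 14.5 CPM in BAT_cold, without overlap on this TMM scale. WAT libraries were at 14.6, 12.4, 14.1 and 10.9 CPM and in WAT_cold 12.1, 11.9, 10.4 and 10.9 CPM, where the groups overlapped. The change was 0.38 ± 0.09 in brown fat with TMM and 0.00 with library totals. In WAT it was -0.23 ± 0.12, with an adjusted p from edgeR of 0.333, and -0.27 ± 0.12 (adjusted p 0.222) without WAT_cold replicate 1.

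Rnf43 (ENSMUSG00000034177), like Lgr5, was nearly absent from brown fat. It was at 0.0652 to 0.184 CPM in BAT and at 0.141, 0.753, 0.118 and 0.346 CPM in BAT_cold. In the WAT group the levels were 7.71, 7.32, 9.02 and 6.85 CPM, and in WAT_cold 0.768, 9.43, 7.48 and 8.42 CPM. Within brown fat both Lgr5 and Rnf43 were highest in BAT_cold replicate 2, the library with the highest sum of mammary markers there (37.0 CPM, against 0.0283 to 14.0 CPM in the other 7). That library was also the highest of brown fat for the mesothelium markers (31.5 CPM), the skeletal muscle markers (1720 CPM) and the macrophage markers (168 CPM).

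Per length, Znrf3 made up 98.6% ± 0.756 of the 2 ligases in BAT and 97.3% ± 2.30 in BAT_cold. In WAT it made up 58.3% ± 2.04, with Rnf43 at 41.7% ± 2.04. In WAT_cold Rnf43 held 37.7% ± 20.4, or 47.8% ± 1.30 without replicate 1. With the longest transcript as length in place of all exons, Rnf43 held 52.7% ± 1.30 in WAT_cold without replicate 1. Which ligase led there thus depended on the length used.

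**Figure D3:**
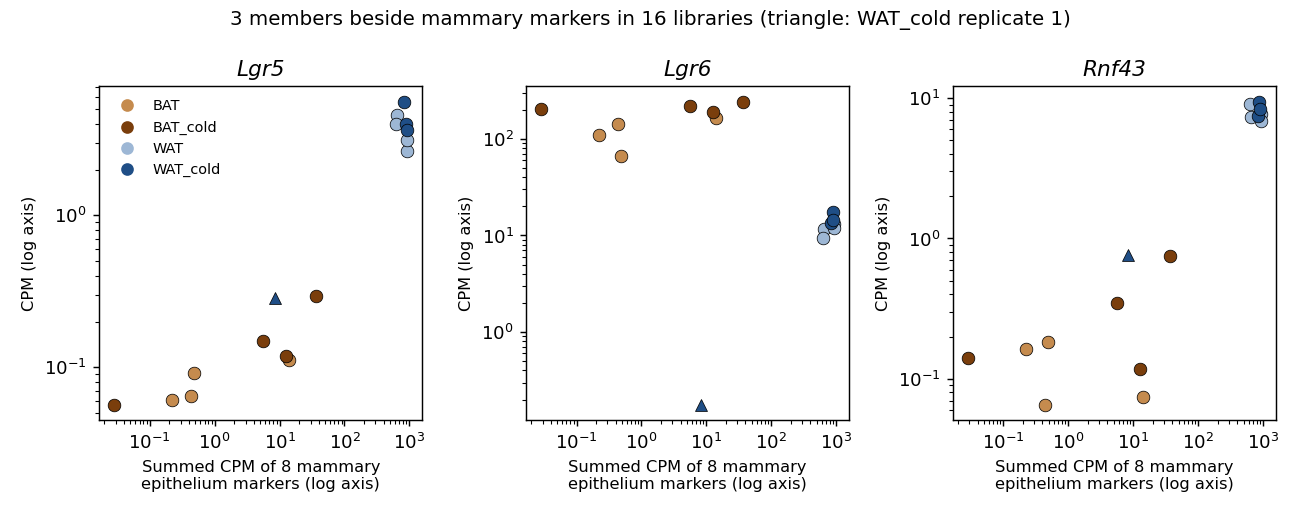
CPM of Lgr5, Lgr6 and Rnf43 in the 16 libraries against the summed CPM of 8 mammary epithelium markers, both on log axes, coloured by group, with WAT_cold replicate 1 as the triangle. WAT_cold replicate 1, with a marker sum of 8.40 CPM, sits apart from the other white fat libraries at 618 to 934 CPM for all 3 genes.

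The mammary markers, like Lgr5 and Rnf43, were high in white fat other than WAT_cold replicate 1 and low in brown fat. The markers summed to 618 to 934 CPM in WAT, 834 to 905 CPM in WAT_cold without replicate 1, 0.223 to 14.0 CPM in BAT and 0.0283 to 37.0 CPM in BAT_cold. The inguinal depot of female mice lies beside a mammary gland. Within WAT, replicates 1 and 4 had the highest marker sums and the lowest Lgr5 levels, and Rnf43 did not follow that order. The marker sums were 934, 641, 618 and 913 CPM in WAT replicates 1 to 4. Lgr5 was at 2.65, 4.61, 4.01 and 3.14 CPM there, and Rnf43 at 7.71, 7.32, 9.02 and 6.85 CPM. The sum of the mesothelium markers had the same contrast between groups. It was at 221 to 391 CPM in WAT, 10.6 CPM in WAT_cold replicate 1 and 8.83 to 31.5 CPM in brown fat. Only 3 of the 6 mesothelium markers were tested between BAT and WAT, and of these 1 was higher in BAT and 2 lower. BAT_cold against WAT_cold gave the same split, so the sum does not stand for every marker of that list. B cell markers were at 663 to 934 CPM in WAT and 2.49 to 8.81 CPM in brown fat. In WAT_cold they were at 252 CPM in replicate 1 against 607 to 872 CPM. T and NK cell markers were at 365 to 526 CPM in WAT and 1.41 to 9.49 CPM in brown fat. In WAT_cold they were at 80.2 CPM in replicate 1 against 292 to 352 CPM. The part of these cell types in the levels of Lgr5, Rnf43 and Lgr6 was not tested.

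The first comparison over all genes asked how brown fat differed between 5 and 30 °C. Of the 9 members, 5 passed the filter on low counts (Rspo1, Rspo4, Lgr4, Lgr6 and Znrf3). Of these 3 were called higher (Rspo4, Lgr6 and Znrf3) and 0 lower, where 29.2% of the 16213 genes were called higher, 30.3% lower and 59.5% either way. Rspo4 had passed the filter only through BAT_cold. With library totals, which lowered the median of all genes by 0.38, 1 member (Rspo4) was called. Over all genes, 14.3% were then called higher and 54.5% lower. Without the filter, Lgr5 (0.90 ± 0.61) and Rnf43 (1.47 ± 0.64) were tested too and neither was called.

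In white fat, 7 members were tested and 0 were called by edgeR, where 0.0632% of 18975 genes were. At an unadjusted p under 0.05 the count was 0 as well. DESeq2 and limma-voom called 0, and limma-voom had 1 at an unadjusted p under 0.05. For these tools and for unadjusted p-values, the members' counts stand without the shares over all genes, which are not given here. Without WAT_cold replicate 1, 0 of 7 were called, where 2.11% of 19320 genes were, and 1 (Lgr6) had an unadjusted p under 0.05. The spread from that library was largest in 3 members: Lgr5 changed by -0.12 ± 0.67 with it and 0.26 ± 0.23 without it, and Rnf43 by -0.27 ± 0.59 with it and 0.09 ± 0.13 without it, beside the values of Lgr6 above.

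**Figure D4:**
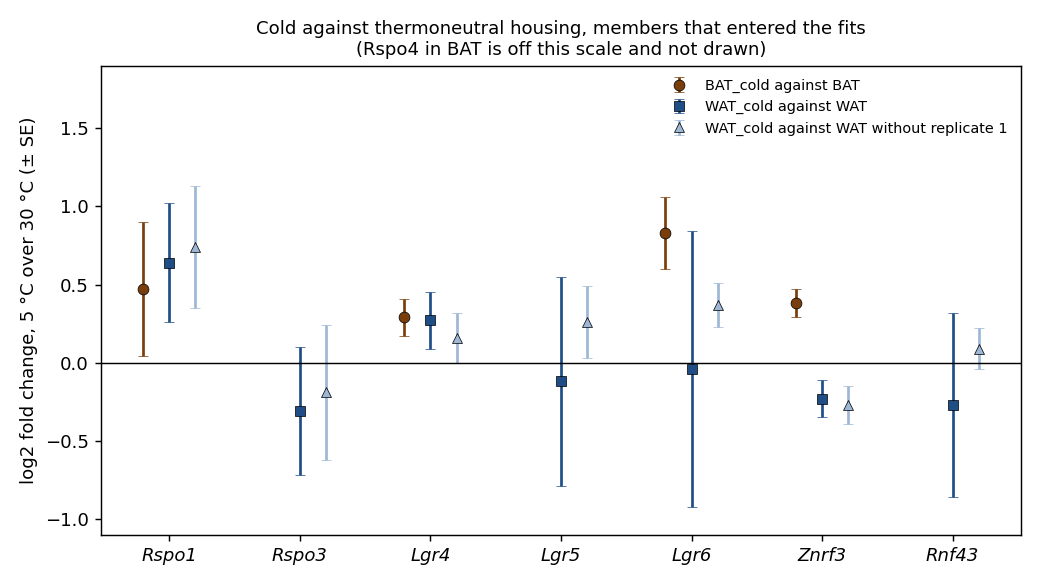
Log2 fold change (5 °C against 30 °C, edgeR with TMM) of each member that entered the fits in BAT, in WAT and in WAT without WAT_cold replicate 1; error bars are 1 SE, and Rspo4, at 11.26 in BAT, is off the scale and not drawn. The WAT error bars of Lgr5, Lgr6 and Rnf43 shrink from an SE of 0.67, 0.88 and 0.59 to 0.23, 0.14 and 0.13 once replicate 1 is left out.

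Whether the temperature effect differed between the tissues was tested as the change in WAT minus the change in BAT, in one fit of all 16 libraries. Of 8 members tested, 2 (Rspo4 and Znrf3) were called, both lower, where 20.8% of 19481 genes were called, 12.5% higher and 8.34% lower. The Rspo4 call rests on the BAT_cold level on which the family was selected. With WAT_cold replicate 1 left out the called members were again 2, where 31.3% of genes were called. Znrf3 differed by -0.58 ± 0.15 with an adjusted p from edgeR of 0.0126, and by -0.66 ± 0.15 without replicate 1. With library totals the difference of Znrf3 was -0.50, with an adjusted p of 0.0823. Rspo4 differed by -9.69 ± 1.19, given as a description. For Lgr6 the difference was -0.84 ± 0.92 (adjusted p from edgeR 0.564) and -0.48 ± 0.31 without replicate 1 (adjusted p 0.259), so its rise in brown fat was not shown to differ from white fat. Rnf43 gave -1.72 ± 0.95 (adjusted p from edgeR 0.219), and Lgr5, Lgr4, Rspo1 and Rspo3 gave adjusted p-values of 0.505 to 0.987.

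Between the tissues at 30 °C, 8 members were tested and 6 were called, 2 higher in BAT and 4 lower, where 34.5% of genes were called higher, 35.3% lower and 69.8% either way. Lgr6 was higher in BAT by 3.38 ± 0.71 on the log2 scale (adjusted p from edgeR 0.000606), and all 4 BAT libraries lay above all 4 WAT libraries. Rnf43 (-5.96 ± 0.76, adjusted p from edgeR 6.37e-06) and Lgr5 (-5.41 ± 0.73, adjusted p 1.18e-05) were lower, beside the mammary marker sums given above. Both had failed the filter in brown fat and entered this fit only through white fat. The sizes of their differences rest on 3 to 10 (Rnf43) and 3 to 6 (Lgr5) counts per BAT library. Rspo1 was lower in BAT (-1.19 ± 0.43, adjusted p from edgeR 0.0210), a call that was lost without BAT replicate 2 (-1.14), BAT replicate 4 (-0.91) or WAT replicate 2 (-1.04).

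Lgr4 and Znrf3 depended on the scaling between tissues. With library totals the median of all genes moved by -0.85, and the split of the members became 1 higher and 6 lower. Over all genes, 12.9% were then called higher and 66.1% lower. Lgr4 was higher in BAT by 0.51 ± 0.16 with TMM (adjusted p from edgeR 0.0101) and stood at -0.33 with library totals. Znrf3 was lower in BAT (-0.25 ± 0.11, adjusted p from edgeR 0.0461), and the call was lost without any 1 of 6 libraries (BAT replicates 1, 3 and 4, WAT replicates 1, 2 and 3), with adjusted p-values of 0.0503 to 0.150. Rspo3 was not called (-0.72 ± 0.41, adjusted p from edgeR 0.127). Rspo2 was 23.5-fold higher in WAT, with an exact 95% interval of 4.0 to 950 for 43 counts against 1. For Rspo4, with 8 counts against 1, the ratio of WAT to BAT was 4.37 with an interval of 0.586 to 194.

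At 5 °C, 7 of 8 members were called, 4 higher in BAT_cold and 3 lower, where 31.8% of genes were called higher, 40.5% lower and 72.4% either way. Of the 4 higher members 1 is Rspo4, whose level in BAT_cold is what the family was selected on, and its call is a description. Without WAT_cold replicate 1 the count was 7 of 8, where 76.2% of genes were called. Lgr6 was higher in BAT_cold by 4.22 ± 0.74 (adjusted p from edgeR 0.000117), and by 3.79 ± 0.26 without replicate 1. Rspo4 stood higher by 7.90 ± 0.50, or 7.83 ± 0.48 without replicate 1. Lgr5 was lower (-4.41 ± 0.69, adjusted p from edgeR 4.30e-05) and Rnf43 was lower (-4.24 ± 0.68, adjusted p 5.63e-05), with -4.81 and -4.62 without replicate 1. Again both entered the fit only through white fat, with 2 to 13 (Lgr5) and 5 to 33 (Rnf43) counts per BAT_cold library.

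Rspo1 was lower in BAT_cold (-1.39 ± 0.42, adjusted p from edgeR 0.00829, and -1.52 ± 0.44 without replicate 1). Rspo2, at 0 counts in BAT_cold, was at least 3.79-fold lower there, taking 3 counts for the whole group as the limit that 0 allows, and at least 2.03-fold lower without WAT_cold replicate 1. Rspo3 gave -0.57 ± 0.42 (adjusted p from edgeR 0.241), or -0.71 ± 0.45 (adjusted p 0.161) without replicate 1. Lgr4 (0.50 ± 0.16, adjusted p from edgeR 0.0111) and Znrf3 (0.33 ± 0.11, adjusted p 0.0110) were higher in BAT_cold with TMM and lower with library totals, at -0.41 and -0.60. Without replicate 1 they gave 0.60 ± 0.16 and 0.35 ± 0.11. With library totals, which moved the median of all genes by -0.93, the split of the members was 2 higher and 6 lower. Over all genes, 10.9% were then called higher and 71.3% lower.

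The rest of the Wnt pathway was read from 5 lists with 67 genes. In brown fat 50 of them were tested, 13 rose and 15 fell with a median change of 0.00, beside 29.2% and 30.3% of all genes and a median of -0.05. With library totals the split was 7 that rose and 26 that fell, where 14.3% of all genes rose and 54.5% fell.

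Of the Wnt ligands, 9 of 19 were tested in brown fat, 0 rose and 3 fell, with a median of 0.11 (-0.26 with library totals). Wnt11, a ligand of beta-catenin-independent signalling, fell from 8.90 ± 2.95 to 3.24 ± 0.931 CPM (-1.45 ± 0.30). Wnt4 fell from 4.82 ± 2.33 to 0.881 ± 0.684 CPM (-2.44 ± 0.54), and Wnt5a from 29.6 ± 2.80 to 22.4 ± 3.92 CPM (-0.41 ± 0.12). Of the Frizzled and LRP receptors that the ligases remove, 10 of 12 were tested, 4 rose and 4 fell, with a median of -0.23, or 3 rose and 6 fell with a median of -0.60 under library totals. The co-receptor gene Lrp5 rose from 72.5 ± 7.44 to 123 ± 2.19 CPM (0.76 ± 0.07), and Fzd7 by 0.84 ± 0.09. Fzd8 fell (-1.49 ± 0.15) and so did Fzd4 (-0.98 ± 0.13).

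Of the genes that carry the signal inside the cell, 15 of 16 were tested, 5 rose and 3 fell, with a median of 0.07. With library totals the split turned to 1 that rose and 9 that fell, with a median of -0.31. Dvl3, a Dishevelled scaffold at the receptor, rose from 30.8 ± 1.87 to 67.3 ± 6.67 CPM (1.13 ± 0.08). Axin1 (0.49 ± 0.06) and Gsk3a (0.47 ± 0.06), both of the complex that destroys beta-catenin, were called with TMM and not with library totals, and Tnks, which marks axin for removal, fell (-0.51 ± 0.08). Of the target and feedback genes, 7 of 10 were tested, 2 rose and 2 fell, with a median of 0.66 (1 and 2, with a median of 0.28, under library totals). Axin2, a feedback inhibitor and common readout of beta-catenin, rose from 16.5 ± 1.71 to 30.9 ± 2.01 CPM (0.91 ± 0.09, and 0.53 with library totals). Ccnd1, a cyclin, rose by 0.66 ± 0.20 with TMM and was not called with library totals. Apcdd1, a Wnt inhibitor, fell from 75.8 ± 26.8 to 4.37 ± 0.770 CPM (-4.12 ± 0.25), and Bambi, a decoy receptor for TGF-beta ligands, from 3.66 ± 0.515 to 1.13 ± 0.115 CPM (-1.69 ± 0.17).

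Syndecans and glypicans are heparan sulfate proteoglycans to which R-spondins bind. In brown fat 9 of 10 were tested, 2 rose and 3 fell, with a median of -0.28. Gpc1 rose from 6.22 ± 1.14 to 18.8 ± 4.26 CPM (1.59 ± 0.18), and Sdc4 from 36.4 ± 6.97 to 93.2 ± 14.7 CPM (1.36 ± 0.16). Gpc4 (-0.47 ± 0.06) and Sdc2 (-0.75 ± 0.09) fell. With library totals 2 rose and 6 fell, with a median of -0.65.

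In white fat 0 of 58 pathway genes tested were called by edgeR, and 5 had an unadjusted p under 0.05. DESeq2 called 2 (Fzd3 and Fzd5) and limma-voom 5 (Lef1, Fzd3, Fzd5, Tcf7 and Fzd7). Without WAT_cold replicate 1, edgeR called 0 of 59, and 10 had an unadjusted p under 0.05. For the calls of DESeq2 and limma-voom and for the unadjusted p-values, the shares over all genes are not given here. Those counts therefore cannot be set against a background. The temperature effects differed between the tissues for 15 of 58, with 8 higher and 7 lower in WAT minus BAT, where 12.5% of all genes were higher and 8.34% lower. With library totals 10 were higher and 4 lower, where 13.4% and 5.54% of all genes were. Without WAT_cold replicate 1, 10 of 59 were higher and 8 lower, where 3101 and 3121 of all 19849 genes were. Axin2 was among them (-1.25 ± 0.20, adjusted p from edgeR 0.000494), at 15.5 ± 2.24 CPM in WAT and 12.2 ± 2.40 CPM in WAT_cold. Apcdd1 differed the other way (3.80 ± 0.46, adjusted p from edgeR 6.00e-05), at 66.8 ± 19.2 and 53.8 ± 25.9 CPM in WAT and WAT_cold. Fzd8 (1.93 ± 0.28, adjusted p from edgeR 0.000246) and Bambi (1.72 ± 0.24, adjusted p 0.000226) also differed.

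Between the tissues at 30 °C, 12 of the 58 pathway genes were higher in BAT and 25 lower, where 34.5% and 35.3% of all genes were. Under library totals 2 were higher and 47 lower, where 12.9% and 66.1% of all genes were. At 5 °C the split was 11 higher and 29 lower, where 31.8% and 40.5% of all genes were. Without WAT_cold replicate 1 it was 12 and 30 of 59, where 6744 and 8381 of all 19849 genes were. Under library totals 2 were higher and 48 lower, where 10.9% and 71.3% of all genes were. Tcf7 and Lef1, the partners of beta-catenin on DNA that T cells use heavily, were at 177 ± 40.1 and 50.7 ± 11.8 CPM in WAT and at 1.24 ± 0.256 and 0.212 ± 0.0663 CPM in BAT. The T and NK cell markers summed to 365 to 526 CPM in WAT and 6.82 to 9.49 CPM in BAT, and their part in these levels was not tested. Wnt2 was at 5.53 ± 1.17 CPM in WAT and 0.319 ± 0.202 CPM in BAT (-4.09 ± 0.58, adjusted p from edgeR 1.87e-05), and Fzd8 was the other way round, at 3.48 ± 0.688 and 21.5 ± 4.34 CPM (2.63 ± 0.20, adjusted p 5.92e-08).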

How the data were processed

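The authors deposited 1 table of raw counts, with 46078 Ensembl identifiers and 16 library columns of whole numbers. Trim Galore and TopHat are named without versions, per the submitters' processing notes. For the counting program, its strand setting, the build and the annotation the entry is: not given in the sources used here. Symbols were matched by identifier for 45143 of the genes. The other 935 (0.0403 to 0.117% of a library's counts) were kept. Groups and replicate numbers came from the sample titles. Separate mice per library are not stated, so p-values measure only the spread between libraries, which may be technical.

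Counts were filtered with filterByExpr (minimum count 10, minimum total 15), scaled by TMM and tested by quasi-likelihood in edgeR 4.0.16 under R 4.3.3. P-values were two-sided and adjusted by Benjamini-Hochberg across the genes in each fit; 0.05 was the threshold. BAT and WAT were fitted apart for temperature. The difference of the temperature effects and the tissue contrasts came from 1 fit of all 16 libraries. SE was taken as |log2 fold change| divided by the root of F. Levels per kb used exon lengths of GENCODE M21, an annotation that may differ from the one used for counting. Intervals (95%, exact) and the floor of 3 counts over a group cover counting error only.

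The members and the pathway and marker lists were chosen with earlier results of these data known. The text names all members, up to 4 called genes with the smallest adjusted p of each pathway list per comparison, and the 3 genes most like each member. For the temperature difference and the tissue contrasts only some of these are printed, picked after their values were seen. Genes outside that rule (Fzd3, Fzd5, Lef1, Tcf7 and Fzd7 in white fat) are named because another tool called them.

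Alternatives were RLE size factors, library totals, no filter, DESeq2 1.42.0, limma-voom (limma 3.58.1), a threshold of 0.01, leaving out single libraries, a replicate block, all 16 libraries in one fit, and the brown fat libraries whose labels all matched. The longest transcript as length, the shares without WAT_cold replicate 1 and the search for outlying libraries on the log2 scale were added after the data were seen. All 24 pairs of libraries within groups differed beyond sampling noise, with a chi-square per degree of freedom of 19.9 or more. The pipeline was tested on simulated data.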

Additional observations from a re-analysis of the deposited data

Results flagged for a closer look

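The temperature effect on Rspo4, the ligand, differed between the tissues in the fit of all 16 libraries: the change in WAT minus the change in BAT was -9.69 on the log2 scale, with group levels of 0.0212 CPM in WAT, 0.0764 CPM in WAT_cold, 0.00462 CPM in BAT and 18.7 CPM in BAT_cold. The family was chosen with this rise known, so the value is a description.

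The temperature effect on Znrf3, the ligase, differed between the tissues by -0.58 (adjusted p from edgeR 0.0126). With TMM all 4 BAT_cold libraries lay above all 4 BAT libraries, while WAT and WAT_cold overlapped. With library totals the change in brown fat was 0.00 and that in WAT -0.49, and the difference was -0.50 with an adjusted p of 0.0823.

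In 31 groups of 4 libraries with a highest count of at least 10, no member had a library whose gap to the nearest other, in CPM, passed Dixon's 95% limit, which chance passes in about 1 of 20 groups. On log2(CPM + 0.5), a scale added after the data were seen, 2 passed it, both as the lowest library and both WAT_cold replicate 1: Lgr6 at 0.176 CPM and Rnf43 at 0.768 CPM. For Lgr6 that library held 11 counts against 1130 to 1603 in the other 3. Its sex-linked counts, mammary markers and muscle markers also stand apart, and their part was not tested.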

How the results depend on the processing

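Of the members' log2 fold changes under the alternatives, 531 kept direction and call, 8 gained a call, 18 lost one and 28 reversed. Of the counts of called members, 81 stayed within 1.5 times and 5 moved. With library totals the count became 1 in brown fat and 1 for the difference of the temperature effects. With matching labels it became 1 in brown fat. At an adjusted p of 0.01 it became 1 for the difference and 3 for BAT against WAT. For matching labels and for 0.01 the shares over all genes are not given here. Library totals reversed Lgr4 in brown fat (-0.09), in WAT (-0.01), in BAT against WAT (-0.33) and in BAT_cold against WAT_cold (-0.41), and Znrf3 in the last (-0.60). Matching labels reversed Rspo1 in brown fat (-0.03). limma-voom reversed Lgr5 (0.19) and Lgr6 (0.25) in WAT, and Rspo1 (-0.45), Rspo3 (0.21) and Lgr4 (-0.02) in the difference, where RLE and DESeq2 also turned Lgr4 (-0.07). Leaving out 1 library at a time gave values on both sides of 0 in WAT for Lgr5 from -0.47 to 0.26, Lgr6 from -0.33 to 0.37, Rnf43 from -0.51 to 0.09, and in the difference for Rspo1 from -0.22 to 0.48, Rspo3 from -0.42 to 0.13, Lgr4 from -0.15 to 0.14. None of these reversed values passed the threshold except Lgr4 and Znrf3 in BAT_cold against WAT_cold. The cause was not tested. Depth limits Rspo2, Rspo3 and, outside BAT_cold, Rspo4.

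The numbers gave no sign of paired samples: residual correlations between equal numbers ran from -0.531 to 0.275, and the best match had the same number in 7 of 48 comparisons. With the replicate block the called members were 4 in brown fat, 0 in WAT and 2 for the difference. They were 5 in BAT against WAT and 7 in BAT_cold against WAT_cold. The shares over all genes with the block are not given here, so these counts cannot be set against a background. The block called Lgr4 in brown fat, did not call Znrf3 in BAT against WAT (adjusted p from edgeR 0.0591), and left the difference of Lgr4 at -0.00.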

Other observations

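For each member that reached a mean of 1 CPM in a group, the 3 genes with the most similar pattern were taken by Pearson correlation of log2(CPM + 0.5) over the 16 libraries. The libraries fall into tissues and temperatures, so a high r mostly restates group levels, and no p is given. Closest to Rspo4 were Acot12 (r 0.996), an acetyl-CoA thioesterase, ccdc198 (0.994) and Lrrc52 (0.993). With WAT_cold replicate 1 left out they were Acot12 (0.996), Pfkp (0.995) and ccdc198 (0.995). Acot12 had means of 0.0470 CPM in BAT, 7.88 CPM in BAT_cold, 0.0134 CPM in WAT and 0.0991 CPM in WAT_cold.

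Closest to Lgr5 were Tmem54, Klc3 and Fam83b (r 0.992 each), and closest to Rnf43 were Tbc1d30 (0.995), Lad1 (0.993), a basement membrane anchor of epithelia, and Ttc39a (0.992). With WAT_cold replicate 1 left out, the genes closest to Lgr5 stayed the same. Those closest to Rnf43 became Shisa3 (0.995), Tbc1d30 (0.995) and P2ry13 (0.994), so Lad1 and Ttc39a were named through that library. Lgr5 and Rnf43 had an r of 0.985 with each other. Closest to Lgr6 were Rassf9 (0.969), Kctd1 (0.962) and Grk1 (0.962). Without WAT_cold replicate 1 they were Nectin2 (0.993), Pdp2 (0.993) and Chkb (0.992), so that library set which genes were named for Lgr6.

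For Lgr4 (Uggt2 0.929, Phactr2 0.924, Nfix 0.923), Znrf3 (Nfkbib 0.887, Aen 0.863, Dyrk1a 0.861) and Rspo1 (Mup14 0.883, Entpd7 0.875, Tppp3 0.858) the highest r was lower than for the members with large tissue differences.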
